A study of Mus musculus with 21 samples.

Results

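The small nuclear and nucleolar RNAs of the mouse, together with the ribosomal precursor, were followed in polyadenylated RNA of E12.5 endothelial cells and cardiomyocytes. Members were taken by gene name from the joint count table: every gene starting with Snora, Snord, Scarna or Rnu, and Rn45s. They were 125 of the 24421 genes: 74 box C/D RNAs (Snord), 36 box H/ACA RNAs (Snora), 9 Cajal body RNAs (Scarna), 5 Rnu-named RNAs and Rn45s. Endothelial cell RNA (EC, 2 libraries) came from Rosa26fsTrap;Tie2Cre ventricles, each library from 60000 GFP+ cells sorted after dissociation. Tie2-Cre marks endothelial and endocardial cells and is also active in blood cells. Cardiomyocyte RNA (CM, 3 libraries) carries the label E12.5 cardiomyocytes; the strain and the way these cells were obtained are not given in the sources used here. Both groups are labelled polyadenylated RNA, and binding to oligo (dT) beads is described for the EC libraries. Chromatin at the members was read in 2 ATAC libraries of 40000 sorted Tie2-Cre EC, and in 3 ATAC libraries each of Gata4 ko and Gata4 het EC (20000 cells), sorted through a Cdh5-driven CreER and the Rosa26mTmG reporter after 1 mg of tamoxifen at embryonic day 9.5. GATA4 binding was read in 3 bioChIP libraries each with Tie2-Cre and Tnnt2-Cre, from pools of 15 to 20 hearts. All these ATAC and bioChIP libraries were of the same embryonic day as the RNA libraries. Cardiomyocyte ATAC was not analysed here.

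Total counts on genes were 27660790 and 21682362 in EC, against 48393473, 42948614 and 45522886 in CM. The labels were checked on marker lists: all 12 endothelial markers were higher in EC (summed 6472 to 6547 CPM in EC, 885.1 to 1036 CPM in CM), and all 12 cardiomyocyte markers were lower (610.9 to 619.8 CPM in EC, 96410 to 106100 CPM in CM). Of 6 red cell markers tested, 5 were lower in EC, with the 8 genes of the list summing to 25.3 to 30.7 CPM in EC and 1370 to 3229 CPM in CM. Hba-a1 and Hba-a2 had no count in EC and Hba-a1 none in CM. Of 8 leukocyte markers, 7 were higher in EC, at a summed 14.7 to 15.5 CPM in EC and 6.09 to 6.26 CPM in CM. Of 9 epicardial and fibroblast markers, 5 were lower and 4 higher, at 1468 to 1551 CPM in EC and 571.7 to 592.1 CPM in CM. The part of these other cells in the results below was not tested. The labels do not say whether libraries of a group came from separate litters, so p-values measure the spread between these libraries, which may be technical.

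Small nucleolar RNAs work as guides inside protein particles. Box C/D RNAs carry the boxes C (RUGAUGA) and D (CUGA) and direct 2′-O-methylation of ribosomal RNA with fibrillarin; box H/ACA RNAs carry an ACA box close to the 3′ end and direct pseudouridylation with dyskerin. Cajal body RNAs use the same particle types on spliceosomal RNAs. U11 and U12 belong to the minor spliceosome, which removes a rare class of introns, and the 45S precursor transcribed by RNA polymerase I is cleaved into 18S, 5.8S and 28S rRNA. In vertebrates most small nucleolar RNAs are cut out of introns of host genes, many of them genes of ribosomal proteins, and neither the mature small RNAs nor the rRNA precursor carries a long poly(A) tail. Counts of these RNAs in libraries made with oligo (dT) are therefore a readout of what remained or was copied in such libraries; capture in the library and abundance in the cell cannot be told apart. In such bulk samples fewer cells of a type and less RNA per cell cannot be told apart either. The target RNAs named for single guides below are those known in human.

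Sequences were available for the stretch that a member shares with an annotated miRNA hairpin, taken from the RefSeq hairpin table (GRCm38.p6) for 6 members. Those below are shown because reads in these stretches belong to both annotations, and because they hold a guide RNA's own box. They are written 5′ to 3′, each from the member's strand, with the ACA box (Scarna13, Scarna3a, Scarna3b, Snora36b) or the C box core UGAUGA (Snord33) in capitals.
Scarna13, chr12:105031077-105031141, minus strand: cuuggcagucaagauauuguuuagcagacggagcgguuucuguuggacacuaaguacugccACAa
Scarna3a, chr1:159340358-159340423, plus strand: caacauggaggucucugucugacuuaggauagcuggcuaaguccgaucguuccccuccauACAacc
Scarna3b, chr12:80391614-80391677, minus strand: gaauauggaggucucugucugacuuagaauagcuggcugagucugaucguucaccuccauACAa
Snora36b, chr1:185242975-185243038, plus strand: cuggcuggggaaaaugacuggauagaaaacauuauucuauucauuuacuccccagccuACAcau
Snord33, chr7:45126918-45126945, minus strand: agcuugUGAUGAgacaucucccacucau
The ACA box stands 3 bases before the annotated end of Scarna13 and of Snora36b, 4 bases before that of Scarna3a and 1 base before that of Scarna3b. Of the 18 members whose exons overlap an exon of another gene on the same strand, these included, 14 had no count in any library and 2 were tested. Of the 107 others, 2 had no count and 90 were tested. Counting assigned no read that touched more than 1 gene, so a low value of an overlapped member says nothing of its abundance.

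**Figure D1:**
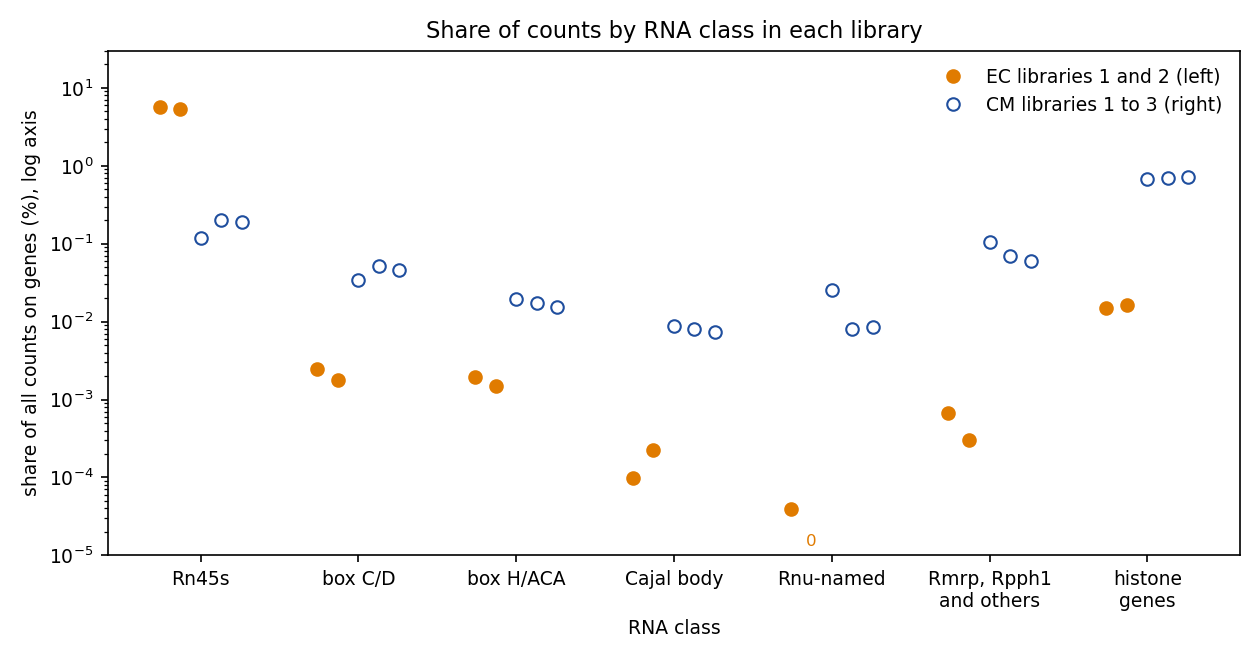
Summed counts of each class as a percent of all counts on genes, on a log axis, for 2 EC libraries (filled, left in each class) and 3 CM libraries (open), with 2 sets of other RNAs without a poly(A) tail at the right; a 0 marks the EC library with no Rnu count. Rn45s stands higher in EC (5.35% to 5.77%) than in CM (0.118% to 0.200%), and each small RNA class and both other sets stand lower in EC.

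Counts on the ribosomal precursor entry and on the small RNAs differed in opposite directions between the groups. Rn45s, the single-locus entry of the 45S precursor in this annotation (chr17:39842997-39848829, plus strand, 5833 bases), had 57720 and 53450 CPM in EC, against 1180, 1997 and 1891 CPM in CM. It took 5.56% ± 0.302 of all counts in EC (SD of 2 libraries), against 0.169% ± 0.0444 in CM (SD of 3 libraries), a ratio of 32.9; the exact permutation test over libraries gave p = 0.1 (two-sided), the smallest that 10 splits allow. In the fit over all genes Rn45s rose by 4.99 on the log2 scale in EC (SE 0.20, edgeR quasi-likelihood test, adjusted p = 3.06e-09). rDNA is repeated, so reads that matched several copies are not in this count. Whether the reads on this entry came from unprocessed precursor or from rRNA cut out of it was not tested.

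Box C/D RNAs summed to 24.5 and 17.9 CPM in EC, against 346.0, 513.2 and 455.7 CPM in CM, a level 20.7 times as high in CM (exact permutation p = 0.1, two-sided). Box H/ACA RNAs summed to 19.2 and 15.0 CPM in EC and to 192.9, 170.9 and 152.8 CPM in CM, 10.1 times as high in CM (exact permutation p = 0.1). Cajal body RNAs summed to 0.976 and 2.26 CPM in EC and to 87.0, 79.7 and 72.7 CPM in CM, 49.3 times as high in CM (exact permutation p = 0.1). In these classes the groups did not overlap. The 5 Rnu-named RNAs summed to 0.398 and 0 CPM in EC, from 11 and 0 counts, and to 254.0, 80.6 and 85.8 CPM in CM (exact permutation p = 0.2). The class sums fell in the same direction as those of other RNAs without a poly(A) tail: 68 replication-dependent histone genes took 0.015% and 0.0162% of counts in EC, against 0.687%, 0.706% and 0.727% in CM. The 7 other small RNAs of this kind summed to 6.65 and 2.998 CPM in EC and to 1045, 694.9 and 605.0 CPM in CM. Rn45s, which has no long poly(A) tail either, went the other way. How much of such RNAs each library preparation keeps was not measured, and its part in the differences was not tested.

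Gene by gene, 92 members passed the filter on low counts (edgeR filterByExpr, about 0.233 CPM in 2 libraries) and 33 did not. Of the 92, 73 were lower in EC, 4 were higher and 15 were not called at an adjusted p of 0.05. Over all 14851 genes tested, 40.2% were lower and 37.5% higher, so most genes separated these cell types; the median log2 difference was -3.01 for the 91 small RNAs tested (-2.83 with those without an EC count at their bound) and -0.06 for all genes. By class it was -3.34 for box C/D (-2.69 with bounds), -2.56 for box H/ACA, -5.40 for Cajal body and -8.20 for Rnu-named RNAs. Most members passed the filter through CM: 85 of the 92 reached it in every CM library, 32 in both EC libraries, and 15 had no EC count, so a low EC value was favoured by the filter. Over the 109 members with any count, both EC libraries lay below all CM libraries for 85, above them for 7 and among them for 17. That order held for 37.0% (below) and 33.8% (above) of the 19645 genes with a count. No member had counts in EC without counts in CM, and 23 had the reverse. The share of all genes seen in CM only was not counted, and every EC library had fewer total counts than any CM library. CM counts of the 23 ranged from 3 (Rnu6) to 2308 (Scarna10). At this depth 3 counts over both EC libraries correspond to 0.0608 CPM.

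**Figure D2:**
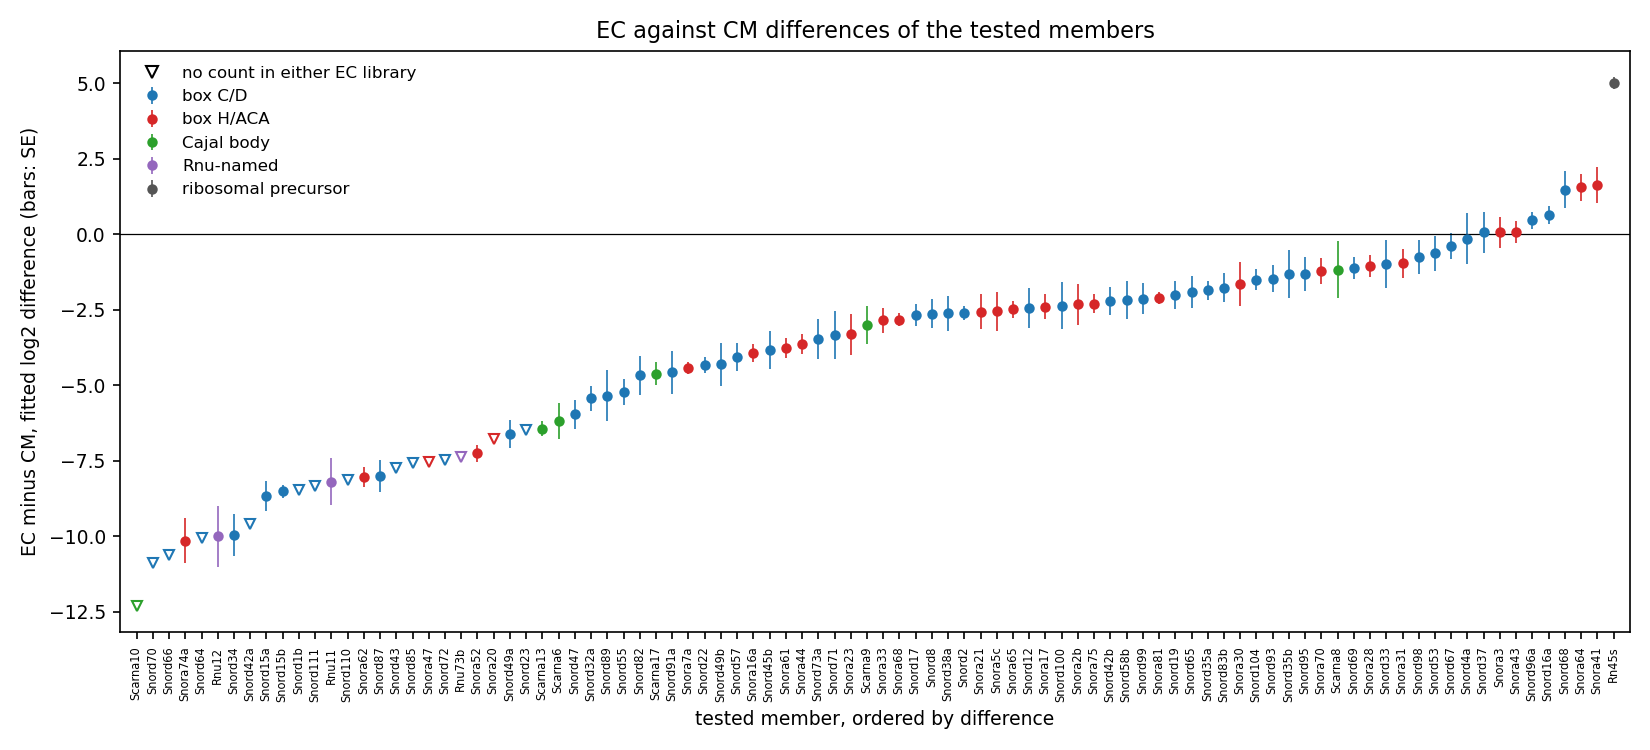
Fitted log2 difference, EC minus CM, of each of the 92 tested members in order of its size, coloured by class, with bars of 1 standard error; open triangles are the 15 members without an EC count, whose fitted value is no bound. Most points lie below 0, Rn45s stands alone at 4.99, and Snord68, Snora64 and Snora41 are the small RNAs farthest above 0.

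Among the Rnu-named genes, the 2 snRNAs of the minor spliceosome carried nearly all counts. Rnu12 (U12, chr15:83149645-83149794, plus strand, outside other genes) had 0.181 and 0 CPM in EC, against 194, 57.4 and 60.9 CPM in CM. That is 5 counts over both EC libraries and 14622 over the CM libraries, a ratio of pooled CPM of 1054 with an exact 95% interval of 452 to 3248, which covers counting error only (edgeR adjusted p = 4.6e-06). Rnu11 (U11, chr4:132270079-132270186, minus strand, outside other genes), which pairs with the start of the intron, had 0.217 and 0 CPM in EC and 59.3, 22.8 and 24.3 CPM in CM, a ratio of 298 (137 to 812; edgeR adjusted p = 2.77e-06). All EC counts of both snRNAs were in replicate 1, and EC replicate 2 alone had none. Without CM replicate 1, the library highest for both, the fitted log2 differences were -9.19 for Rnu12 and -7.61 for Rnu11, against -10.00 and -8.20 with all libraries.

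Rnu73b, by its name a U73 box C/D RNA in an intron of Rps3a1 (chr3:86140617-86140687, minus strand), had no count in EC and 0.599, 0.419 and 0.615 CPM in CM. Against a floor of 3 counts over both EC libraries it was at least 9.01-fold lower in EC (edgeR adjusted p = 4.48e-04). Rnu6 had 0 CPM in EC and at most 0.0413 CPM in CM and was not tested. Rnu7, the histone 3′ end processing snRNA, had no count anywhere. The Rnu6 and Rnu7 entries of the table span 27 and 25 bases at places other than the RefSeq genes of these symbols, as do Snord118, Snord14a, Snord14c and Snord14d; their counts are not counts of the RefSeq genes. The major spliceosomal snRNAs U1, U2, U4 and U5 were not analysed here.

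**Figure D3:**
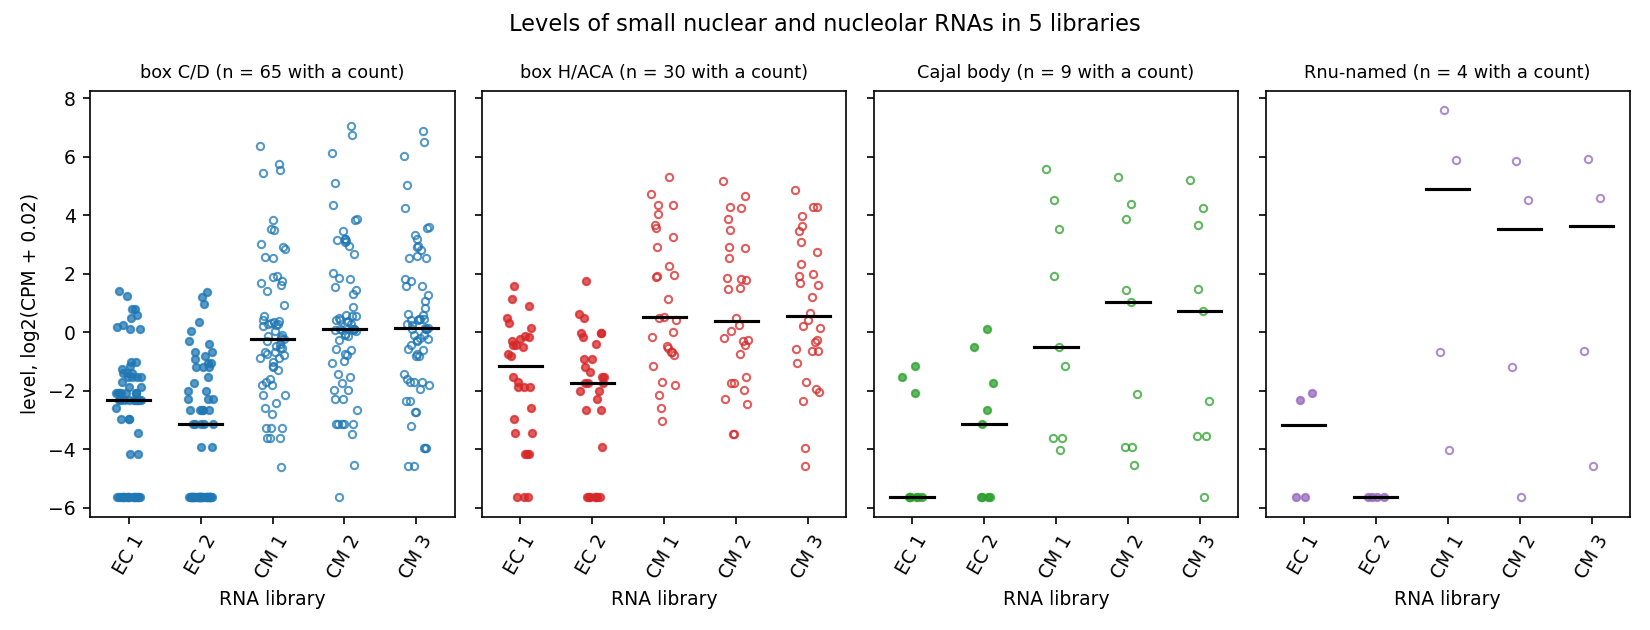
Level of each small RNA with a count, as log2 of CPM plus 0.02, in 2 EC libraries (filled, left) and 3 CM libraries (open), 1 panel per class; black lines are medians and RNAs without a count in a library lie at the bottom. In every class the upper end of the CM libraries lies far above that of the EC libraries, where no RNA exceeds 3.37 CPM.

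Of the 9 Cajal body RNAs, 6 were tested: 5 were lower in EC and Scarna8 was not called. Per length, Scarna17 was highest in both groups, with 12.1 RPKM ± 7.15 in EC (SD of 2 libraries), against 274.5 RPKM ± 79.1 in CM (SD of 3 libraries). The order in CM depends on annotated length: Scarna17 spans 62 bases and Scarna13 275, and in mean CPM Scarna13 was higher (41.1 against 17.0). Scarna17 had 0.434 and 1.06 CPM in EC, against 11.5, 20.8 and 18.7 CPM in CM, and fell by 4.61 on the log2 scale (SE 0.38, edgeR adjusted p = 8.79e-07; -5.35 without EC replicate 2). Scarna13 (U93, an H/ACA guide for spliceosomal RNAs, chr12:105031075-105031349, minus strand, in Snhg10) had 0.325 and 0.692 CPM in EC, against 47.5, 39.4 and 36.5 CPM in CM. It fell by 6.43 (SE 0.24, edgeR adjusted p = 1.7e-09; -7.03 without EC replicate 2), although reads in the hairpin stretch printed above were not counted for it.

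Scarna10 (U85, a guide for U5 that has both C/D and H/ACA parts, chr6:125186361-125186431, minus strand, in Ncapd2) had no count in EC and 22.9, 14.5 and 12.7 CPM in CM. It was at least 277-fold lower in EC (edgeR adjusted p = 3.09e-07). Scarna6 (in Atg16l1) had 0 and 0.0922 CPM in EC, 2 counts in all, against 3.80, 2.701 and 2.79 CPM in CM, a ratio of 76.97 (21.2 to 638). Scarna9, a guide for U2, had 0.217 and 0.138 CPM in EC and 0.682, 2.002 and 1.65 CPM in CM (log2 difference -3.01, edgeR adjusted p = 0.00135). Scarna8 overlapped between groups, with 0 and 0.277 CPM in EC and 0.434, 0.210 and 0.176 CPM in CM (log2 difference -1.17, edgeR adjusted p = 0.278); all its EC counts were in replicate 2, and without that library, with no EC count left and the spread taken from CM, it was called (adjusted p = 0.021). Scarna3a and Scarna3b, whose hairpin stretches are printed above, had no EC count and at most 0.0659 CPM in CM.

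Of 74 box C/D RNAs, 55 were tested, of which 44 were lower in EC, 1 was higher and 10 were not called. Their mean levels spanned 0 to 2.14 CPM in EC and 0.117 to 101.4 CPM in CM. The RNAs highest per length were different ones: Snord2, Snord96a and Snord16a led in EC at 26.4, 23.6 and 23.5 RPKM, and Snord34, Snord87 and Snord15b led in CM at 1537, 1095 and 499.3 RPKM. The last 3 held 58.0% of all box C/D counts in CM.

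Snord34 (U34, a 28S rRNA guide, chr7:45126603-45126668, minus strand, in an intron of Rpl13a) had 0.181 and 0 CPM in EC, against 53.5, 133.6 and 117.1 CPM in CM. The ratio of pooled CPM was 985 (422 to 3034, 5 EC counts, edgeR adjusted p = 2.24e-07); EC replicate 1 held all 5. Snord87, a 28S guide in Snhg6 (chr1:9942470-9942543, minus strand), had 0.217 and 0.461 CPM in EC and 46.1, 106.0 and 91.1 CPM in CM, a fall of 7.99 on the log2 scale (SE 0.53, edgeR adjusted p = 1.48e-07; -8.59 without EC replicate 2).

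Snord15b and Snord15a are U15 copies in introns of Rps3 (chr7, minus strand) and guide methylation of 28S rRNA. Snord15b had 0.217 and 0.185 CPM in EC, against 82.1, 70.4 and 64.7 CPM in CM, and fell by 8.503 (SE 0.22, edgeR adjusted p = 1.24e-10). Snord15a had 1 count in EC and 11.3, 8.76 and 7.78 CPM in CM, a ratio of 460 (82.4 to 18180). Both copies were low in both EC libraries, but reads that match both copies were left out of the counting.

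Snord22 (U22, in Snhg1), required for 18S rRNA processing in Xenopus, had 2.60 and 1.01 CPM in EC and 43.6, 34.3 and 32.9 CPM in CM, a fall of 4.34 (SE 0.27, edgeR adjusted p = 7.77e-08; -5.24 without EC replicate 1). Snord57 (an 18S guide in Nop56) had 1.12 and 0.784 CPM in EC, against 8.04, 20.3 and 18.9 CPM in CM (log2 difference -4.07, edgeR adjusted p = 1.25e-05). Snord2 (a 28S guide in Eif4a2) was the RNA highest per length in EC and still fell by 2.59 (SE 0.23, edgeR adjusted p = 1.64e-06), with 2.35 and 1.25 CPM in EC and 11.4, 10.97 and 9.93 CPM in CM. The 18S guides Snord70 and Snord66 had no EC count and were at least 101-fold and 84.1-fold lower in EC.

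Snord16a (U16, an 18S guide in Rpl4) did not follow the rest. It had 1.70 and 2.58 CPM in EC, against 1.28, 1.19 and 1.49 CPM in CM, and both EC libraries lay above all CM libraries (log2 difference 0.64, edgeR adjusted p = 0.0721, not called). Snord96a in Gnb2l1 also lay above, with 1.70 and 1.94 CPM in EC and 1.18, 1.28 and 1.36 CPM in CM (log2 difference 0.46, edgeR adjusted p = 0.154). The only box C/D RNA called higher was Snord68 in Rpl13, with 0.398 and 0.277 CPM in EC, against 0.0827, 0.0931 and 0.176 CPM in CM (log2 difference 1.47, edgeR adjusted p = 0.0486). It rests on 17 EC and 16 CM counts, was named after its values were seen, and was not called without EC replicate 1, without CM replicate 2 or by DESeq2.

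Of 36 box H/ACA RNAs, 27 were tested, of which 21 were lower in EC, 2 were higher and 4 were not called. Mean levels spanned 0 to 3.18 CPM in EC and 0.217 to 30.3 CPM in CM. Per length, Snora81 and Snora68 led in EC at 19.4 and 18.1 RPKM, and Snora7a, Snora62 and Snora52 led in CM at 235.0, 168.9 and 137.9 RPKM. All 5, and Snora74a below, guide pseudouridylation of 28S rRNA.

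Snora7a (in Rpl32, chr6:115807975-115808103, minus strand) had 1.37 and 1.52 CPM in EC, against 26.4, 35.8 and 28.8 CPM in CM, and fell by 4.44 (SE 0.20, edgeR adjusted p = 6.02e-09). Snora62 (in Rpsa, chr9:120130434-120130561, plus strand) had 0.0362 and 0.138 CPM in EC and 20.3, 25.2 and 19.4 CPM in CM, a ratio of 266 (104 to 975, 4 EC counts). Snora52 (in Rplp2, chr7:141448803-141448936, plus strand) fell by 7.25 (SE 0.29, edgeR adjusted p = 2.7e-09), with 0.108 and 0.138 CPM in EC and 20.2, 19.6 and 15.6 CPM in CM. These 3 lie in introns of ribosomal protein genes.

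Snora74a (U19, in Snhg4) had 1 count in EC, 0.0362 and 0 CPM, against 39.3, 18.9 and 19.4 CPM in CM, a ratio of 1296 (233 to 51210; edgeR adjusted p = 3.86e-07). Of the 6 highest by mean RPKM, Snora81 and Snora68 differed least. Snora81 (in Eif4a2) had 3.001 and 3.37 CPM in EC and 16.4, 11.3 and 12.3 CPM in CM, a fall of 2.12 (SE 0.20, edgeR adjusted p = 2.79e-06). Snora68 had 2.17 and 1.38 CPM in EC, against 11.9, 14.6 and 10.9 CPM in CM, a fall of 2.83 (SE 0.22, edgeR adjusted p = 6.32e-07).

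The 2 box H/ACA RNAs called higher, named after their values were seen, were low in both groups. Snora64 (in Rps2) had 1.23 and 0.969 CPM in EC, against 0.434, 0.186 and 0.461 CPM in CM (log2 difference 1.55, SE 0.46, edgeR adjusted p = 0.00945); it was not called without EC replicate 1. Snora41 (in Eef1b2) had 1.08 and 0.277 CPM in EC and 0.269, 0.163 and 0.220 CPM in CM (log2 difference 1.63, edgeR adjusted p = 0.0263). It was not called without EC replicate 1, without CM replicate 2 or by DESeq2.

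Levels in EC, most of them close to the counting floor, showed little relation to those in CM. Across the 76 tested small RNAs with an EC count, log2 CPM correlated with r = 0.09 and rho = 0.15, as a description over RNAs that share the same 5 libraries. The 10 RNAs at 20 CPM or more in CM had a median of 0.155 CPM in EC, and the 32 under 1 CPM in CM had 0.147 CPM in EC. Both medians lie close to 0.0608 CPM, the floor of 3 counts over both EC libraries. The filter was passed in every CM library by 85 of 92 members and in both EC libraries by 32. Counting noise at such levels weakens a correlation, so a relation between the groups is not excluded. The difference showed no linear relation to annotated length (r = -0.02 over 91 RNAs), but the length classes were uneven. Lower calls were 15 of 18 RNAs under 60 bases, 25 of 28 from 60 to 80, 10 of 16 from 80 to 110, 14 of 20 from 110 to 140 and 9 of 9 from 140 bases up.

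The CM libraries differed among themselves by RNA length and class. For the 93 small RNAs with at least 20 CM counts, the log2 ratio of CM replicate 1 to the mean of replicates 2 and 3 correlated with annotated length (r = 0.53, rho = 0.55), again as a description. Class and length go together, and within a class the correlation was weaker: r = 0.40 and rho = 0.23 over 56 box C/D RNAs, and r = 0.41 and rho = 0.28 over 28 box H/ACA RNAs. The 57 RNAs under 100 bases had a median of -0.33, and 42 of them were lower in replicate 1. The 36 of 100 bases or more had a median of 0.31, and 27 of them were higher. By class the medians were -0.32 for box C/D, 0.22 for box H/ACA and 1.33 for the 3 Rnu RNAs. The extremes were Snora23 at 1.80, Rnu12 at 1.71 and Rnu11 at 1.33, against Snord42a at -1.45, Scarna9 at -1.42, Snord57 at -1.29 and Snord34 at -1.23. Hosts of these members (63 genes) had a median of 0.10 and all genes 0.01. Replicate 1 was also the highest for the RNase RNAs Rmrp (602.5 CPM, against 425.2 and 369.4) and Rpph1 (326.4, against 218.3 and 181.4).

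**Figure D4:**
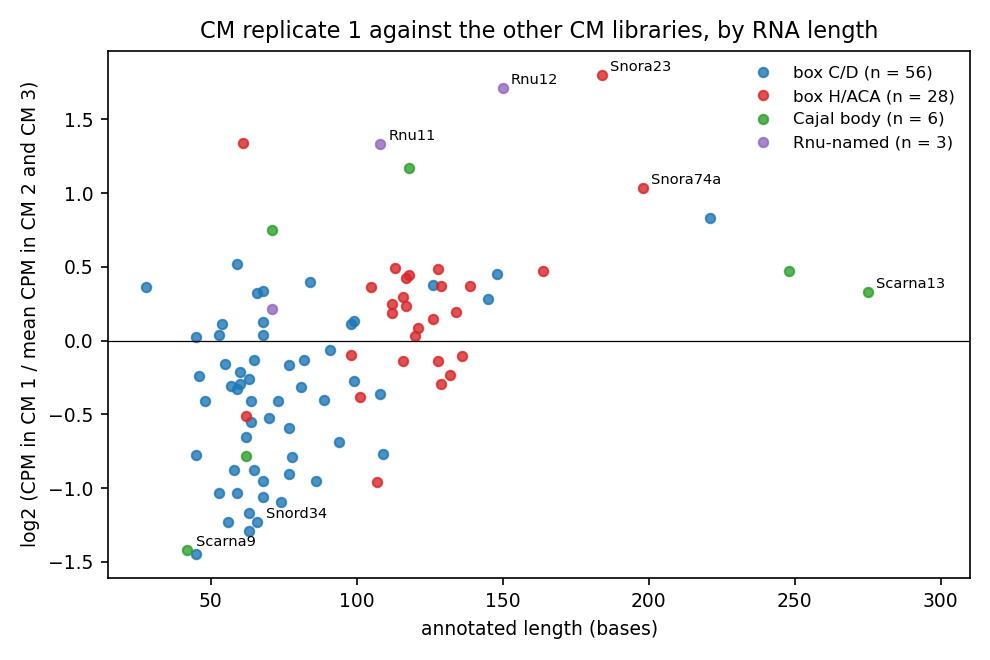
Log2 ratio of CM replicate 1 to the mean of CM replicates 2 and 3 against annotated length in bases, for 93 small RNAs with at least 20 CM counts, by class. RNAs under 100 bases lie mostly below 0 (median -0.33) and longer RNAs mostly above it (median 0.31).

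Host genes did not move with the RNAs in their introns. Of the members, 106 lie inside 79 genes on the same strand, and 83 pairs could be tested. Of these 83 members 66 were lower and 3 higher in EC, while the host was lower in 34 pairs and higher in 34. Median log2 differences were -2.85 for members (-2.69 with the 14 without an EC count at their bound) and 0.01 for their hosts, and member and host differences correlated with r = 0.10 and rho = 0.12 over the 83 pairs, some of which share a host. Counts per 1000 host counts were lower in EC for 76 of the 83. The same count was not made for the other hosted genes, so it is not read as particular to the members. In the fit with the host count as offset, 61 members were lower, 1 was higher and 21 were not called; over all 237 hosted genes tested in this way 57.4% were lower and 12.7% higher. Those 237 include the 83 members; of the 154 other hosted genes 75 were lower (48.7%) and 29 higher (18.8%). By class, 34 of 50 box C/D, 22 of 27 box H/ACA, 4 of 5 Cajal body RNAs and the 1 Rnu RNA were lower than their hosts.

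**Figure D5:**
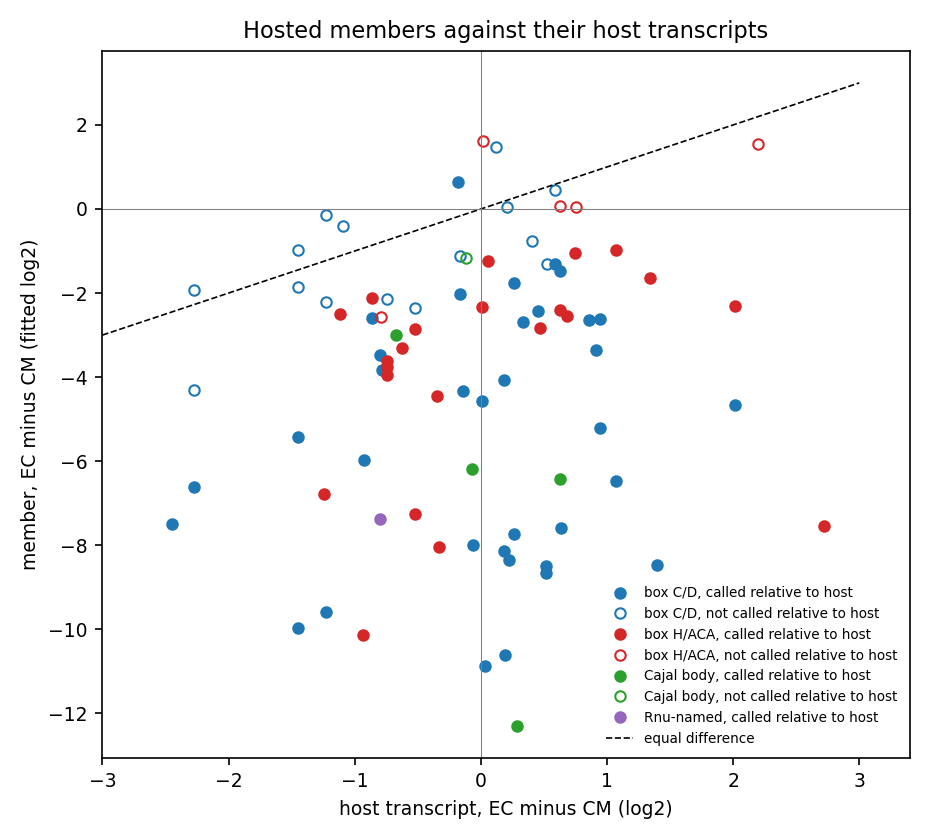
Log2 difference, EC minus CM, of 83 members (vertical axis) against that of their hosts (horizontal axis), by class; filled points were called relative to the host and the dashed line marks equal differences. Most points lie below the line at any host difference. Of the 83 pairs, 66 had a lower member, 34 a higher host and 24 both.

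In 24 of the 83 pairs, with 20 hosts, the member was lower while its host was higher. With 66 members lower and 34 hosts higher among the 83, many such pairs arise without any link between member and host. Their share among other hosted genes was not analysed. Ncl, which encodes nucleolin, a nucleolar protein of rRNA synthesis, had 2309 and 2419 CPM in EC, against 426.0, 653.9 and 617.6 CPM in CM (log2 difference 2.02, edgeR adjusted p = 3.62e-07). From its introns, Snord82 had 0 and 0.553 CPM in EC and 3.80, 7.71 and 7.03 CPM in CM, or 0.103 counts per 1000 host counts in EC and 10.9 in CM (relative to host -6.62, edgeR adjusted p = 0.00101). Snora75, also in Ncl, had 0.795 and 0.507 CPM in EC and 3.64, 2.75 and 3.16 CPM in CM, or 0.284 and 5.70 counts per 1000 host counts in EC and CM (relative to host -4.39, edgeR adjusted p = 7.09e-04). Snora47 had no EC count and 0.620 CPM ± 0.0398 in CM (SD, n = 3), at least 10.2-fold lower in EC, while its host Zbed3 was higher by 2.72. Rps3, host of Snord15a and Snord15b, was higher by 0.52.

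By host type, 19 of 30 members in ribosomal protein genes were lower relative to the host. So were 9 of 11 in the noncoding hosts Snhg, Gas5 and Dancr, and 33 of 42 in other genes. Of all hosted genes, these members included, 57.4% were lower, and of the 154 that are no members 48.7%. Of these host types, ribosomal protein genes had the share nearest to both, and no difference between shares was tested. The member called higher relative to its host was Snord16a, by 0.82 over Rpl4 (edgeR adjusted p = 0.0484); the call was lost without any 1 of the 3 CM libraries. Snora64 was not called relative to its host: Rps2 was higher by 2.19, and relative to it the difference was -0.63 (edgeR adjusted p = 0.249).

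Fitted differences varied widely among RNAs of the same host, but no difference between RNAs of 1 host was tested. Rpl13a, a large-subunit protein gene, had 411.0 and 374.0 CPM in EC, against 1104, 1036 and 972.9 CPM in CM (log2 difference -1.45). Of its 4 RNAs, relative to the host, Snord34 was at -8.60 (edgeR adjusted p = 5.23e-04) and Snord32a at -4.02 (7.09e-04), both called lower, whereas Snord35a (-0.45) and Snord33 (0.41) were not called. Snord33 overlapped between groups and is the member whose C box stretch is shared with a hairpin. All 8 EC counts of Snord33 were in replicate 1. Without that library, with no EC count left, its log2 difference was -6.63, against -0.99 with all libraries.

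Rpl23a (log2 difference -1.22) held Snord42a with no EC count, at least 41.6-fold lower in EC. Relative to the host, Snord42b was at -1.03 and Snord4a at 1.02, both not called. All 10 EC counts of Snord4a were in replicate 1. Without that library, with no EC count left, its log2 difference was -6.10, against -0.15 with all libraries. The host 2410006H16Rik had 27.7 and 24.5 CPM in EC and 134.2, 121.8 and 110.9 CPM in CM. Relative to it, Snord49a was called lower at -4.43 (edgeR adjusted p = 0.00117), and Snord49b (-2.14) and Snord65 (0.30) were not called. All EC counts of Snord49b were in replicate 1. In Snhg12 the 3 H/ACA RNAs lay close together at -3.23 (Snora16a), -3.02 (Snora61) and -2.89 (Snora44), all called, and the C/D RNA Snord99 at -1.39 was not called.

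Starts of these hosts were searched for a pyrimidine stretch, since genes of ribosomal proteins and many noncoding hosts are known to start at a terminal oligopyrimidine tract. The string CTTTC, on the gene's strand, was looked for in the 30 bases around each start (15 on either side) in the RefSeq promoter table (GRCm38.p6), which held 62 of the 79 hosts. It was found at 10 of 62 hosts (16.1%), at 5 of 15 ribosomal protein hosts (33.3%) and at 1286 of 27025 genes of the table (4.76%). Its reverse complement GAAAG was found at 1 host (1.61%) and at 4.22% of all genes. Of the hosts with 3 or more members tested, Rpl13a, Snhg12 and 2410006H16Rik, all with a match, are shown and Rpl23a was not analysed here; the starts of Ncl, Rps3 and Eif4a2, with 2 members each, held no match. Sequences are written 5′ to 3′ on the gene's strand, with CTTTC in capitals.
Rpl13a, chr7:45128731-45128760, minus strand: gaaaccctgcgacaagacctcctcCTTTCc
Snhg12, chr4:132308663-132308692, plus strand: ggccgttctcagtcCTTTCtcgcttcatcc
2410006H16Rik, chr11:62602862-62602891, plus strand: tcacgcgccgtCTTTCtctgcggccatcat
A match is a description of these letters and not a site.

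Among genes of the core proteins of both particle types, 4 were higher in EC, 1 was lower and 4 were not called. Of the 5 box C/D core protein genes tested, 2 were higher and none lower in EC: Fbl, the fibrillarin methyltransferase, had 49.5 and 42.8 CPM in EC, against 14.1, 19.7 and 20.6 CPM in CM (log2 difference 1.30, edgeR adjusted p = 1.38e-05), and Nhp2l1, which binds the kink turn, was higher by 0.89. Nop56 (0.18), Nop58 (0.03) and Rrp9 (-0.14) were not called. Of 4 box H/ACA core protein genes, Dkc1, the pseudouridine synthase dyskerin, had 147.1 and 146.6 CPM in EC and 96.4, 97.7 and 95.8 CPM in CM (0.56, edgeR adjusted p = 1.74e-05). Gar1 was higher by 1.31, Nop10 was lower by 0.58 (log2 difference -0.58, edgeR adjusted p = 0.00157) and Nhp2 (0.06) was not called. The all-gene median of -0.06 is the level against which these differences are read. Over all genes tested 40.2% were lower and 37.5% higher, and list counts here and below are read beside those shares.

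Of 14 genes of particle assembly and the Cajal body, 8 were higher and 4 lower (median 0.34). They included Tgs1, the cap hypermethylase of snRNAs, at 1.51, Tcof1, the treacle protein of nucleoli, at 1.42, and Nolc1, which binds both particle types, at 0.57. Genes of snRNA transcription and 3′ processing split evenly, with 10 higher and 10 lower of 23; the Integrator subunits Ints9 and Ints3 were higher by 2.10 and 0.80 and Ints6 was lower (-1.09). Of 30 genes of the Sm and LSm rings and snRNP assembly, 11 were higher and 11 lower, among them Smn1 and Lsm2 at 1.65 and 1.62 and Lsm3 at -1.85. Major spliceosome proteins had 10 higher and 6 lower of 23, with Sf3a2 at 2.86, Sf3a1 at 1.29 and Snrnp40 at 1.16.

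Minor spliceosome proteins, the partners of U11 and U12, had 3 higher and 6 lower of 12 (median -0.26): Zrsr2, which reads the 3′ splice site of minor introns, was at 0.94, and Rnpc3 and Scnm1 were at -0.87 and -0.79. Genes of RNA polymerase I and rDNA transcription, which make the 45S precursor, had 7 higher and 9 lower of 21 (median -0.14). Polr2e, a subunit shared by the RNA polymerases, was at 1.65, Baz2a at 1.58 and Polr1e at -1.60. Factors of rRNA processing had 18 higher and 13 lower of 44 (median -0.04), with Ncl at 2.02, Nol10 at 1.24 and Nol6 at 1.22. Genes of the nuclear exosome and trimming had 4 higher and 11 lower of 22 (median -0.22), with Exosc1 at 1.01, Zcchc7 at -0.99 and the nuclease Dis3 at -0.89. None of these lists had a median as far from 0 as any of the small RNA classes. Several splits lay near the all-gene shares of 40.2% lower and 37.5% higher. RNA polymerase I genes had 42.9% and 33.3%, Sm and LSm genes 36.7% each and snRNA transcription genes 43.5% each. Farther off were, among others, the short lists of the exosome (50.0% lower, 18.2% higher) and the minor spliceosome (50.0% and 25.0%). Noncoding host genes had 7 higher and 7 lower of 19, with Meg3 at 1.75, Gas5 at -0.92 and Snhg14 at -1.82.

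RNAs of other families without a poly(A) tail fell together with the members. All 6 tested were lower in EC: the RNase MRP RNA Rmrp had 2.64 and 1.43 CPM in EC, against 602.5, 425.2 and 369.4 CPM in CM (edgeR adjusted p = 1.61e-09), and the RNase P RNA Rpph1 had 3.72 and 1.29 CPM in EC and 326.4, 218.3 and 181.4 CPM in CM (adjusted p = 3.43e-08). All 57 histone genes tested were lower. Of 83 Mir genes tested, which are counted over hairpins inside other transcripts, 54 were lower and 11 higher, and the sums over all 1183 overlapped between groups at 250.6 and 121.2 CPM in EC, against 232.1, 389.2 and 366.5 CPM in CM. Whether the members fell with the type of transcript or with the cell type cannot be told apart in this design.

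Open chromatin and GATA4 peaks were counted for 116 members, within 1 kb of the 5′ end and in at least 2 libraries of a group. They lie on 1 strand of 1 chromosome in blocks at most 500000 bases apart, without entries placed elsewhere than RefSeq. Snord116, Snord116l1 and Snord116l2 overlap one another over 10 loci but are counted as separate members. Each had a peak in both Tie2-Cre EC ATAC libraries and in no Gata4 ko or het library, which widens the gap between these lists. ATAC peaks in Gata4 ko EC stood at 33 members and in Gata4 het EC at 33 (28.4% each); in Tie2-Cre EC they stood at 65 (56.0%). Over 24173 genes of the table the shares were 60.5% in ko, 60.9% in het and 65.9% in Tie2-Cre EC. The gap between the Tie2-Cre lists and the other lists lay at members away from gene starts: of 93 members more than 1 kb from another gene's start, 12 had a peak in ko, 12 in het and 44 in Tie2-Cre EC, and of 23 nearer ones 21 had a peak in each. Lists held 55733 to 90326 peaks in the ko and het libraries and 114599 to 130708 in the Tie2-Cre libraries, which were made from other numbers of cells and with another Cre, so genotype, Cre, cell number and list length cannot be told apart between them. Of the 79 hosts, 74, 73 and 76 had a peak at the start in ko, het and Tie2-Cre EC.

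GATA4 peaks stood at 10 members (8.62%) with Tie2-Cre and 14 (12.1%) with Tnnt2-Cre, against 11.6% and 15.8% of all genes. The order depended on the distance: within 2000 bases members stood at 18.1% and 23.3%, against 13.2% and 17.9% of genes. Of the 79 hosts, 21 (26.6%) had a Tie2-Cre and 26 (32.9%) a Tnnt2-Cre GATA4 peak within 1 kb of the start. Both counts depended on single libraries: they were 3 of 116 without replicate 1 or without replicate 3 of either driver, since replicate 2 held only 2734 (Tie2-Cre) and 3603 (Tnnt2-Cre) peaks. Rnu11, which has its own promoter 4189 bases from the nearest other gene start (Taf12), had a peak in all 3 Tie2-Cre and all 3 Tnnt2-Cre GATA4 libraries and in every ATAC library of the 3 groups. Snord104, 13195 bases from the nearest gene start, had GATA4 peaks in 3 Tie2-Cre and 2 Tnnt2-Cre libraries, and Scarna2, 8064 bases away, in 2 and 2. Both had ATAC peaks in every library. Rnu12 had ATAC peaks in every library and a GATA4 peak in 1 library of each driver, but it lies 309 bases from the start of Poldip3. The Rn45s locus had peaks in all 14 libraries, but rDNA is repeated. Whether reads of other copies made up these peaks was not tested. Snord34 had peaks in both Tie2-Cre EC ATAC libraries and in none of the others, and Scarna10 and Snora74a, which lie deep inside their hosts, had none in any of the 14. A peak at an intronic RNA can belong to its host, and these are counts over peak lists with no test.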

How the data were processed

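Values for 2 EC and 3 CM RNA libraries are whole-number read counts per gene, which the authors deposited as 1 joint table. Per the file headers, featureCounts 1.6.3 counted them on the UCSC mm10 annotation with strand setting 1, leaving out reads on several genes and multi-mapping reads. Other tools in the submitters' processing notes are deepTools 3.3.1, MACS2 2.2.4, STAR 2.7.3a, Bowtie2 2.2.9 and Bowtie 1.1.1. Names of the CM alignments in the header carry a tag that the EC names lack; its meaning is not stated there, so cell type and any batch it marks cannot be told apart. Each peak library came as its own deposited list, whose −log10 q values served as a filter. An EC-only count table was not used.

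The fit over all genes used edgeR 4.0.16 in R 4.3.3: TMM scaling, the filterByExpr filter, the quasi-likelihood test and Benjamini-Hochberg adjustment at 0.05. The SE of a log2 difference was derived from its F value. CPM are counts scaled to the library's total on genes, RPKM the same per 1000 bases. A host is a gene on the same strand that contains the member; the host fit took log(host count + 1) as offset over 237 hosted genes. Ratios of pooled CPM carry exact 95% intervals, which, like the floor of 3 counts, cover counting error only. Python 3.11.15, pandas 2.3.3, scipy 1.17.1, numpy 2.4.6 and matplotlib 3.10.9 did the rest. On simulated counts of EC against CM over 14851 genes the fit recovered 77.4% of genes changed 2-fold and 92.6% changed 4-fold; the host fit over 237 genes recovered 43.8% and 89.1%. All replicate pairs differed beyond sampling noise: chi-square over its degrees of freedom was 8.05 in EC and 14.1 to 35.7 in CM.

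Members, gene lists and alternatives were chosen with earlier results of these data known. Named members were Rn45s, the Rnu genes tested and the 6 of each other class highest in RPKM. Also named were the 3 with the greatest called differences each way at 5 CPM or more. Members of hosts with 3 or more members, and those farthest from the host, were added. Of the protein and noncoding host lists, the 3 called genes with the smallest adjusted p were named, and all core proteins. RefSeq symbols matched 122 of 125 members. Alternatives were other scalings and filters, DESeq2 1.42.0, host offsets, each library left out, the replicate number as a block, and other peak distances and q.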

Additional observations from a re-analysis of the deposited data

How the results depend on the processing

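The 73 members lower in EC were 58 under a filter of 1 CPM in 2 libraries (63 tested), 73 with DESeq2, 76 with no filter, and 69 to 80 with 1 library left out. Where 1 EC library is left out, the remaining one is assumed to vary like the CM libraries. No call reversed. The 4 higher members were 1 under the 1 CPM filter, 2 with DESeq2, and 2 to 5 with 1 library left out. Members lower than their host ranged from 53 to 64 with 1 library left out, and members higher than their host from 0 to 3. Of the named members, Snord4a reversed: -0.15 with all libraries and 0.70 without EC replicate 2, neither called, and -6.10 without EC replicate 1, when EC had no count of it. Members with peaks at 200 bases were 19 in Gata4 ko, 17 in Gata4 het and 38 in Tie2-Cre EC, and 5 (Tie2-Cre) and 6 (Tnnt2-Cre) for GATA4; at 2000 bases they were 64 in ko, 65 in het and 83 in Tie2-Cre EC, and 21 and 27 for GATA4. Of all genes, 63.9%, 64.5%, 69.0%, 13.2% and 17.9% had such peaks at 2000 bases, in that order, so members (71.6%, 18.1% and 23.3%) lay above the genes for Tie2-Cre ATAC and both GATA4 drivers, where they lay below at 1 kb. With a −log10 q of at least 5, within 1 kb, members with peaks were 33 in ko, 33 in het and 54 in Tie2-Cre EC, and 9 and 13 for GATA4. Of all genes, 54.3%, 55.2%, 64.5%, 9.44% and 13.8% had such peaks, in that order. Leaving out each peak library, chosen after seeing the data, gave 3 to 10 for Tie2-Cre and 3 to 14 for Tnnt2-Cre GATA4. The causes were not tested. EC libraries had fewer counts than CM libraries, and 23 members with CM counts had none in EC.

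Whether the replicate numbers pair the libraries could not be decided. Correlations of deviations were -0.02 and -0.01 for the 2 same-numbered pairs. With 2 EC libraries the deviations from the EC mean mirror each other, so these values cannot show or exclude pairing. With the replicate block 68 members were lower and 2 higher in EC, and 49 were lower and 0 higher than their host. The calls lost in EC against CM include Snora41 and Snord68.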
